A study of Homo sapiens with 4 samples.

Results

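To describe the enzalutamide-resistant line RES-B across all genes, its single-cell RNA sequencing (scRNA-seq) library was compared with that of the parental line LNCaP. LNCaP is an androgen-sensitive human prostate cancer line, and enzalutamide (ENZ) is an anti-androgen drug. Cells were chosen by 1 rule for both libraries, namely at least 1500 detected genes, at least 5000 UMIs and under 20% of UMIs from mitochondrially encoded genes. A UMI (unique molecular identifier) stands for 1 captured RNA molecule. The rule kept 2019 of 2358 barcodes in LNCaP and 4239 of 4907 in RES-B, together 6258 of the 15452 cells kept in the 4 libraries of the series. The parental cells had received DMSO solvent (0.1%) for 48 h. RES-B had been derived from LNCaP by prolonged exposure to the related anti-androgen RD-162 and was kept in 10 µM ENZ, so line and drug cannot be told apart. Both shared the same culture medium and serum, and living cells were sorted before droplet-based 3' libraries were made. The 2 other libraries, LNCaP given 10 µM ENZ for 48 h (LNCaP-ENZ48) and the resistant line RES-A, also kept in 10 µM ENZ, serve here as context. With a single library on each side, differences could not be checked against replicates and no test was run.

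Androgens drive luminal prostate cells to make secreted proteases such as the kallikreins, and anti-androgens lower those genes. Cells that go on growing under such drugs can keep, lose or replace parts of the luminal program. Secretory cells also rely on chaperones of the endoplasmic reticulum, which fold the proteins that enter the secretory route and are raised when that compartment is under load.

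The kept cells held 55696198 UMIs in LNCaP and 57709230 in RES-B. LNCaP cells were deeper, with a median of 26502 UMIs against 12480, and the median mitochondrial share was 9.72% in LNCaP and 12.2% in RES-B. The 2 libraries shared 6 cell barcodes. Gene levels below are the UMI sums of all kept cells, scaled to counts per 1000000 UMIs of the library (CPM). Ratios are log2 ratios of CPM, RES-B against LNCaP, followed in brackets by their 95% interval, which reflects counting error alone. A gene counted as higher or lower when its ratio reached 2-fold and its level was 10 CPM or more in LNCaP, RES-B or both.

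Of 8093 genes at that level, 453 were at least 2-fold higher in RES-B (5.6%) and 306 at least 2-fold lower (3.78%), together 9.38%. Most genes stayed close, with 68.6% of ratios within 0.5 of 0 and a median of 0.11. At least 8-fold differences were seen for 57 genes that were higher and 43 that were lower. In the other libraries, which share LNCaP as reference, 374 genes were higher and 404 lower of 7979 in RES-A, and 17 higher and 54 lower of 7565 in LNCaP-ENZ48.

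**Figure D1:**
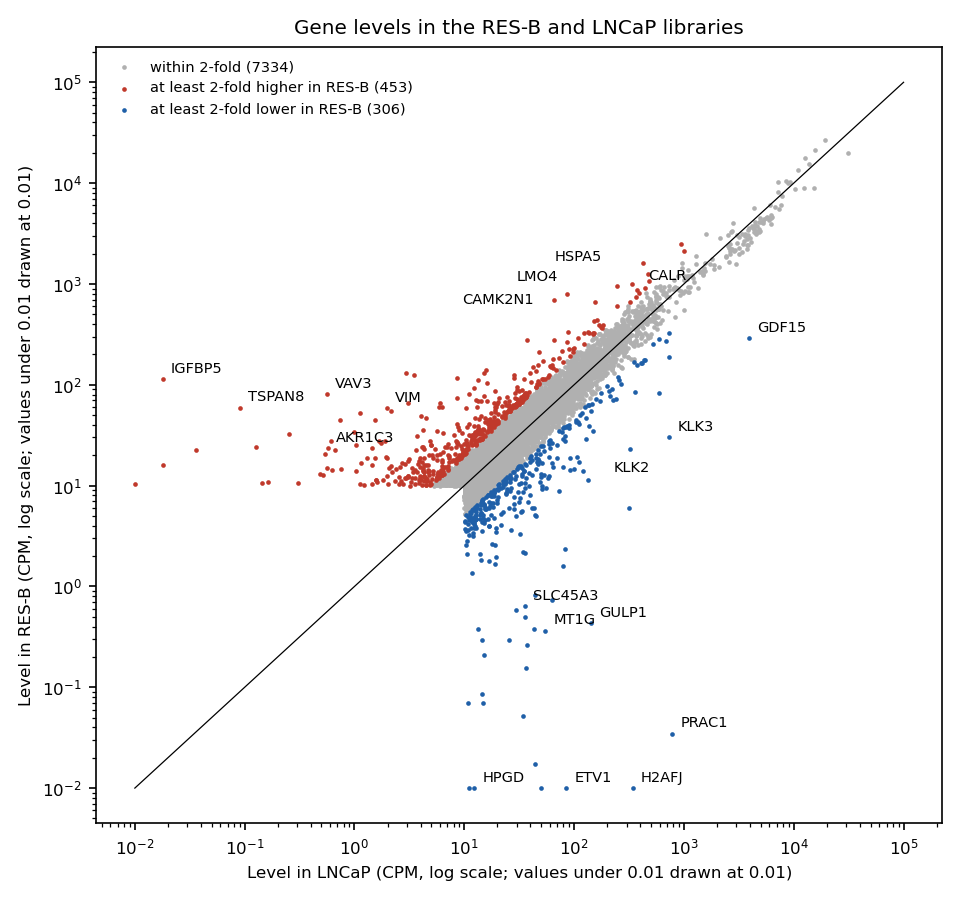
Level of each of the 8093 genes in LNCaP (horizontal axis) and RES-B (vertical axis), in CPM on log axes, 1 point per gene, with the line of equal levels. The 453 red genes lie at least 2-fold above the line and the 306 blue genes at least 2-fold below it; values under 0.01 CPM are drawn at 0.01.

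The 15 genes that stood highest in RES-B had little expression in LNCaP, apart from CAMK2N1 and LMO4. LMO4, a LIM-only transcriptional adaptor, had 86.4 CPM in LNCaP and 97.6 in LNCaP-ENZ48, with 124 in RES-A and 802 in RES-B (3.22 [3.17, 3.26]). CAMK2N1, an inhibitor of the calcium/calmodulin-dependent kinase CaMKII, had 65.3, 221, 46.6 and 689 CPM in the same order (3.40 [3.35, 3.45]). RES-B was thus the highest library for both genes, and CAMK2N1 was also past 2-fold after 48 h of ENZ (1.76).

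Several of the highest genes encode signalling proteins. VAV3, a guanine nucleotide exchange factor, had 0.557 CPM in LNCaP and 0.543 in LNCaP-ENZ48, with 1.57 in RES-A and 81.0 in RES-B. ADRA2A, the alpha-2A adrenergic receptor, had 1.13, 1.94, 1.53 and 52.7 CPM in that order (5.54 [5.18, 5.93]). The tetraspanin gene TSPAN8 rested on 5 UMIs in LNCaP and 3 in LNCaP-ENZ48, against 40 in RES-A and 3425 in RES-B. In these 3 genes RES-B stood far above each of the other libraries. PTPRR, 204 kb from TSPAN8, had a ratio of 3.87 [3.53, 4.24], and ZFC3H1 on the other side had -0.01. IGFBP5, a secreted binding protein of insulin-like growth factors, had 1 UMI in LNCaP and 7 in LNCaP-ENZ48, with 17604 in RES-A and 6574 in RES-B. Its ratio of 12.63 [10.15, 17.94] in RES-B therefore rests on a single parental UMI.

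The intermediate filament gene VIM had 1.98 CPM in LNCaP and 2.22 in LNCaP-ENZ48, with 211 in RES-A and 58.6 in RES-B (4.89 [4.62, 5.18]). TUBA1A, an alpha-tubulin, had 2.15, 6.22, 108 and 55.3 CPM (4.68 [4.42, 4.96]). Both were higher in RES-A than in RES-B. TUBA1A has near copies, and its neighbours TUBA1C (0.00) and TUBA1B (0.44) did not reach 2-fold. Counts of genes with near copies, the metallothioneins, kallikreins and UGT2B genes included, are uncertain as levels.

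Of the enzymes among the 15, PLA2G2A, a secreted phospholipase A2, had 2.96 CPM in LNCaP and 7.61 in LNCaP-ENZ48, with 12.9 in RES-A and 130 in RES-B (5.46 [5.23, 5.69]). LTN1, a ubiquitin ligase that clears stalled nascent chains from ribosomes, had 8.64, 10.1, 10.1 and 116.2 CPM (3.75 [3.62, 3.89]). For PLA2G2A the RES-A level lay between LNCaP and RES-B, while for LTN1 the 3 other libraries were close together.

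Transcription factors made up much of the remainder. TOX3, of the HMG-box family, had 3.48 CPM in LNCaP and 3.99 in LNCaP-ENZ48, with 21.9 in RES-A and 126 in RES-B (5.18 [4.97, 5.39]). HOXA10, a homeobox gene, had 5.96, 6.68, 0.494 and 65.8 CPM (3.46 [3.30, 3.63]), so RES-A and RES-B lay on opposite sides of LNCaP. ZNF503, a zinc-finger repressor, reached 59.6 CPM from 5.93 (3.33 [3.17, 3.50]). LRRN1, which encodes a leucine-rich repeat membrane protein, reached 60.5 CPM from 6.32 (3.26 [3.10, 3.42]).

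The 15 genes that stood lowest in RES-B included 2 without a single UMI there. H2AFJ, a replication-independent H2A histone, had 341 CPM in LNCaP, 359 in LNCaP-ENZ48 and 0 UMIs in both RES-A and RES-B. ETV1, an ETS-family transcription factor that is rearranged in LNCaP, had 84.9 and 42.0 CPM in LNCaP and LNCaP-ENZ48 and 0 UMIs in both resistant lines. With 3 UMIs as the floor for a count of 0, the drop in RES-B was 6555-fold for H2AFJ and 1634-fold for ETV1. The interval bounds nearest 0 were log2 ratios of -12.38 and -10.38 in that order. The genes next to H2AFJ, WBP11 at 6.58 kb (0.25) and ATF7IP at 271 kb (0.24), did not reach 2-fold.

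PRAC1, which encodes a small nuclear protein found in prostate and hindgut, had 776 CPM in LNCaP and 1014 in LNCaP-ENZ48, with 394 in RES-A and 2 UMIs in RES-B. Its neighbour PRAC2, 0.667 kb away at chr17:48723185-48724758 on GRCh38, had 121, 141, 98.5 and 13.9 CPM (-3.12 [-3.23, -3.01]). The next gene, HOXB13, had 135, 156, 91.7 and 92.1 CPM (-0.55 [-0.60, -0.50]). The loss was therefore deepest at PRAC1 and did not reach 2-fold at HOXB13, and for PRAC1 and PRAC2 it was large in RES-B and under 2-fold in RES-A.

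A second pair of neighbours fell on chromosome 2. GULP1, an adaptor for the engulfment of dying cells, had 143 CPM in LNCaP and 179 in LNCaP-ENZ48, with 0.0341 in RES-A and 0.433 in RES-B (-8.37 [-9.00, -7.81]). TFPI, the inhibitor of the tissue factor pathway of coagulation, had 62.3, 32.1, 0.0341 and 0.728 CPM (-6.42 [-6.89, -5.98]). They lie 726 kb apart with no other gene above the level limit between them, whereas ITGAV (0.15) and WDR75 (-0.46) on either side did not reach 2-fold. PEG3, an imprinted zinc-finger gene, had 314, 110, 0.0170 and 6.05 CPM (-5.70 [-5.85, -5.54]), and was also lower in both resistant lines.

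EFNA5, a membrane-bound ephrin ligand, had 79.8 CPM in LNCaP and 97.5 in LNCaP-ENZ48, with 90.1 in RES-A and 1.61 in RES-B (-5.63 [-5.94, -5.33]). RES-B was thus the single low library for EFNA5. GDF15, a secreted stress cytokine of the TGF-beta superfamily, had 3887, 2280, 322 and 288 CPM (-3.75 [-3.78, -3.73]). S100P, a calcium-binding protein, had 82.2, 54.0, 5.80 and 2.36 CPM, and TRPM4, a calcium-activated cation channel, 72.3, 59.5, 10.7 and 8.79 CPM. For these 3 genes RES-A was also below LNCaP-ENZ48. DSEL, related to dermatan sulfate epimerase, fell from 135 to 11.4 CPM (-3.56 [-3.68, -3.45]).

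**Figure D2:**
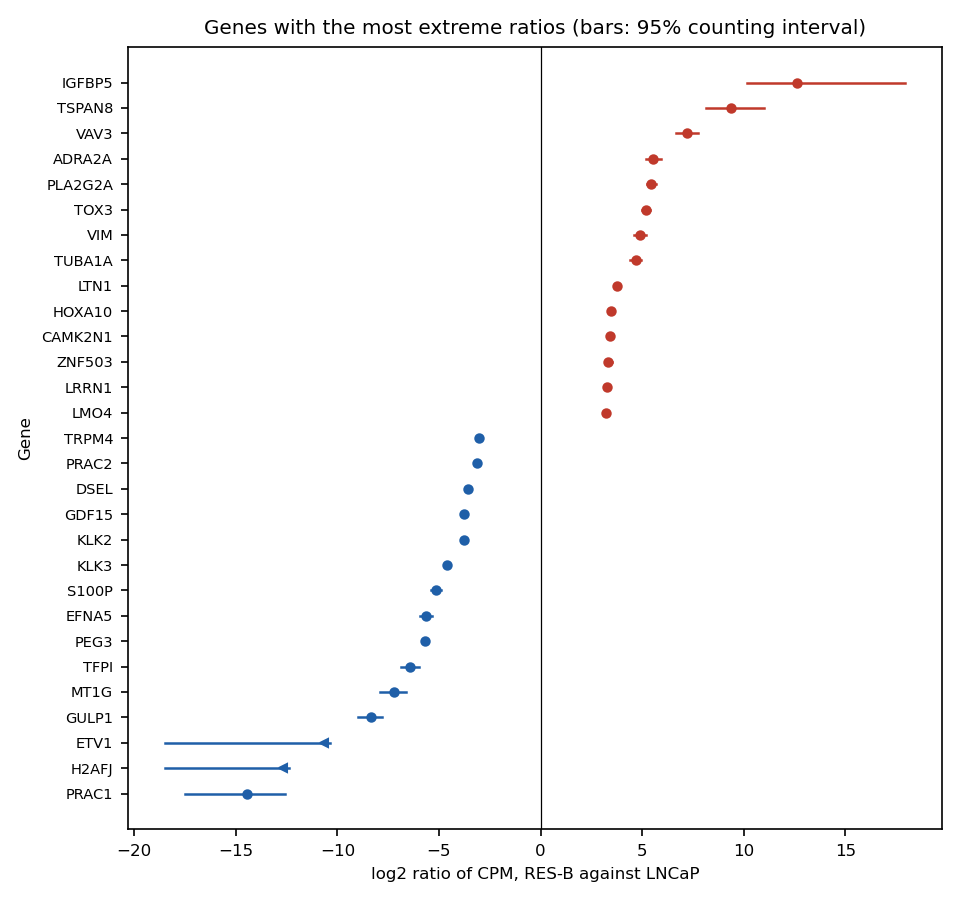
Log2 ratio of CPM, RES-B against LNCaP, for the highest (red) and lowest (blue) genes, with bars for the 95% counting interval. Triangles mark ETV1 and H2AFJ, which had 0 UMIs in RES-B and are drawn at the value set by the floor of 3 UMIs. The lower end of their bar is cut at the edge. Wide bars belong to genes with few UMIs in 1 library, such as IGFBP5 and PRAC1.

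**Figure D3:**
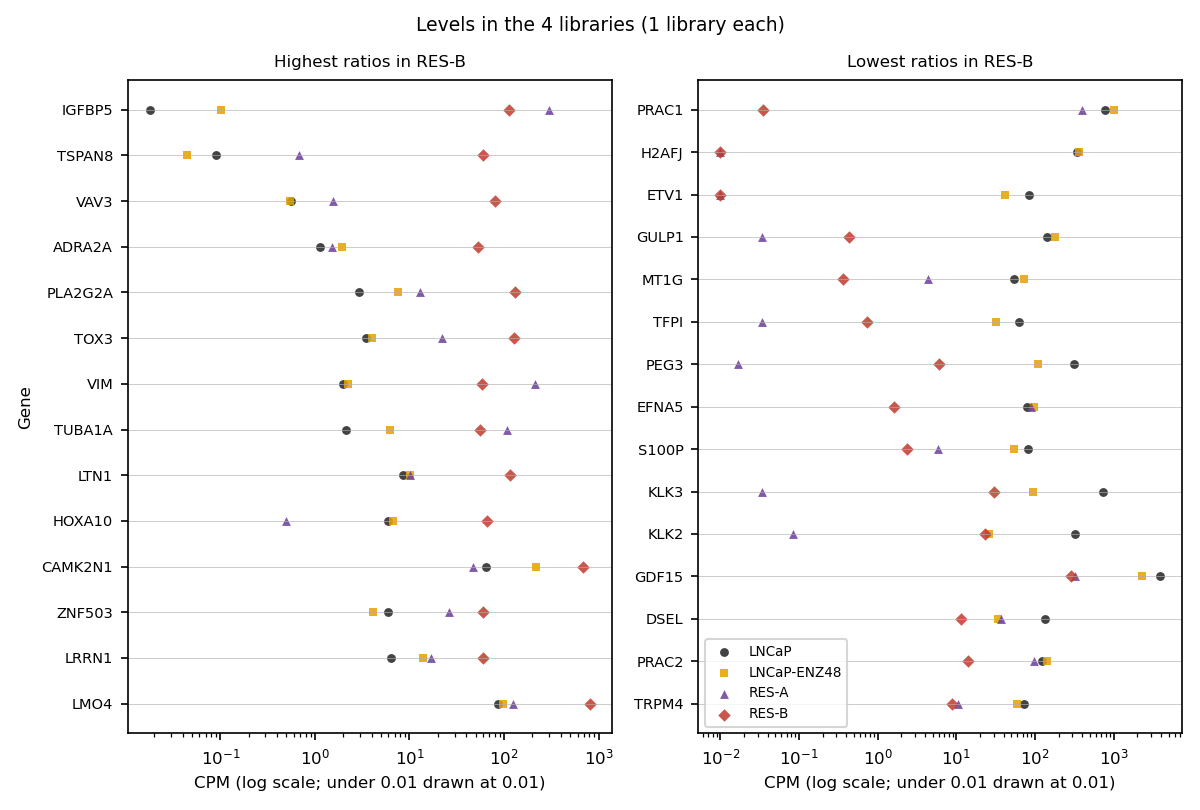
Level in CPM (log axis) of the same genes in the 4 libraries, 1 marker per library, with values under 0.01 drawn at 0.01. RES-B lies to the right of LNCaP in the left panel and to its left in the right panel by the choice of genes; HOXA10, EFNA5 and PRAC1 are examples in which RES-A lies away from RES-B.

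To see whether these differences lay in most cells or in few, each cell was thinned to 5000 UMIs and the share of cells with at least 1 UMI was taken. LMO4 went from 32.3% of LNCaP cells [30.3, 34.4] to 82.5% of RES-B cells [81.3, 83.6], and CAMK2N1 from 9.06% [7.85, 10.4] to 59.7% [58.2, 61.2]. TOX3 went from 1.14% to 44.2%, LTN1 from 4.31% to 35.2% and VAV3 from 0.248% to 30.0%. IGFBP5 was seen in 0 of 2019 thinned LNCaP cells, which allows a share of up to 0.149% when 3 counts are taken as the limit of a 0, and in 16.0% of RES-B cells. Unthinned, 1 LNCaP cell held an IGFBP5 UMI. LMO4 and CAMK2N1 were thus found in most RES-B cells, the others in a minority at this depth. Without thinning, the LNCaP shares were 76.2% for LMO4, 6.34% for TOX3 and 0.0495% for IGFBP5. The RES-B shares were then 94.2%, 73.0% and 24.4% in the same order.

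In the other direction, PRAC1 went from 93.8% of cells [92.6, 94.8] to 0.0236% [0.000597, 0.131]. GULP1 went from 46.2% to 0.165% and EFNA5 from 31.7% to 0.661%. GDF15 remained in 53.2% of RES-B cells, down from 97.5%, and KLK3 in 8.99%, down from 54.0%. The loss of PRAC1, GULP1 and EFNA5 was therefore nearly complete over the cells, and that of GDF15 was not. No cell type that should lack these genes was part of the libraries, so no background share from free RNA could be set beside them.

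The androgen-induced genes were the list with the most members lower in RES-B. Of 32 members above the level limit, 17 fell at least 2-fold, 1 rose and 14 lay between, with a median of -1.11. Over all 8093 genes 5.6% rose and 3.78% fell at least 2-fold, with a median of 0.11. A list count near these shares, here or below, does not set that list apart. The kallikreins KLK3 and KLK2, secreted proteases, had 733 and 321 CPM in LNCaP and 30.4 and 23.2 CPM in RES-B. KLK4 fell less, from 146 to 64.9 CPM (-1.17 [-1.22, -1.11]), and had 34.6 CPM in LNCaP-ENZ48 and 0.290 in RES-A. KLK4 was thus higher in RES-B than in either of the other ENZ-exposed libraries, while still under the parental level.

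Other members were nearly absent from RES-B. SLC45A3, a luminal membrane transporter also known as prostein, had 35.6 CPM in LNCaP and 7.04 in LNCaP-ENZ48, with 0.682 in RES-A and 0.641 in RES-B. ZBTB16, a zinc-finger repressor, had 43.1, 9.21, 0.0170 and 0.381 CPM (-6.82 [-7.50, -6.22]). HPGD, which breaks down prostaglandins, had 681 UMIs in LNCaP and 0 in RES-B. In these 3 genes both resistant lines were below LNCaP-ENZ48. ABCC4, an efflux pump, fell from 44.8 to 5.03 CPM, and TMPRSS2, a membrane protease, from 107 to 19.2 CPM. TSC22D1 was the member that rose, from 100 to 233 CPM (1.22 [1.17, 1.26]), while it had 80.8 CPM in RES-A.

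The promoter of KLK3 is shown because its androgen response element is a textbook example. In the 250 bases before its start (RefSeq, GRCh38.p14, plus strand, chr19:50854665-50854914), capitals mark the half-site AGAACA, which was searched on both strands and is found in 12.4% of all promoters of this length. It was in 2 of the 31 androgen-induced genes that had a promoter, of 41 (6.45%), and had no exact match in that of KLK2. There the letters ggaaca precede the same gcaagtgct that follows the match in KLK3. Near matches were not searched.
KLK3: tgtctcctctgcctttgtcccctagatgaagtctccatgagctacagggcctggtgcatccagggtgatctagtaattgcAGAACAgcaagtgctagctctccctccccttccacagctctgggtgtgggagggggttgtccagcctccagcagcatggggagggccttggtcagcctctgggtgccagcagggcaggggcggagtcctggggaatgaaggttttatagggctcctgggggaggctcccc

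Genes listed as repressed by androgens did not move together. Of 7 members above the level limit, 2 rose and 2 fell at least 2-fold and 3 lay between, with a median of -0.43. PEG3, given above, was the member that fell furthest (-5.70). UGT2B15, an enzyme that inactivates androgens by glucuronidation, had 10.6 CPM in LNCaP and 33.6 in LNCaP-ENZ48, with 123 in RES-A and 25.2 in RES-B (1.25 [1.11, 1.39]). UGT2B17, its close relative, had 21.5, 27.5, 24.96 and 5.22 CPM (-2.04 [-2.23, -1.86]). DDC, which makes monoamines from aromatic amino acids, had 24.1, 68.3, 126 and 17.8 CPM (-0.43 [-0.55, -0.32]). The order of the libraries thus differed from gene to gene, and of the members named in this report CAMK2N1 was the one with its highest level in RES-B. Among other steroid-converting enzymes, AKR1C3, which forms testosterone from weaker precursors, rose from 0.575 to 23.6 CPM (5.36 [4.85, 5.91]), with 11.1 CPM in RES-A.

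Of 13 luminal transcription factors above the limit, 2 rose and 2 fell, with a median of -0.54 and 9 ratios below 0. FOXA1, a pioneer factor, had 157 CPM in LNCaP and 124 in RES-B (-0.34 [-0.39, -0.30]), and GATA2 had 105 and 80.4 CPM (-0.39 [-0.44, -0.33]). XBP1 rose from 134 to 333 CPM (1.32 [1.28, 1.36]) and CREB3L4 from 47.4 to 103 CPM (1.11 [1.05, 1.18]), and EHF was among those that fell (-1.08 [-1.12, -1.04]). Both genes that rose encode factors tied to the endoplasmic reticulum. Of 39 HOX genes, 4 were above the limit, and 3 of them rose. Beside HOXA10 these were HOXC6 (11.7 to 31.5 CPM) and HOXC9 (9.30 to 24.5 CPM), which in RES-A were at 11.7 and 10.7 CPM.

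**Figure D4:**
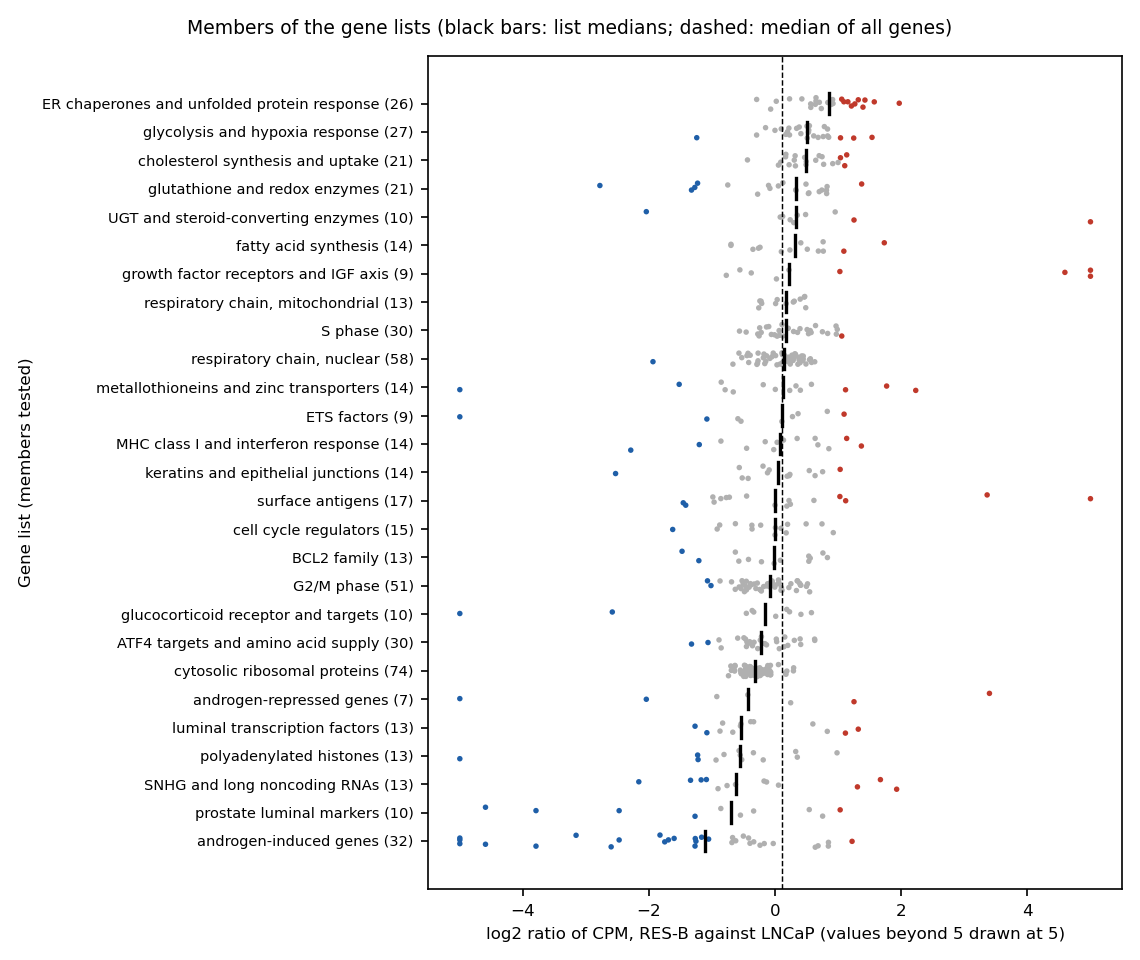
Log2 ratio of CPM, RES-B against LNCaP, for the members of each gene list with at least 7 members above the level limit, 1 point per gene (red at least 2-fold higher, blue at least 2-fold lower; values beyond 5 or -5 drawn there). Black bars are list medians and the dashed line is the median of all 8093 genes (0.11); the endoplasmic reticulum list lies farthest to the right (0.86) and the androgen-induced list farthest to the left (-1.11).

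Genes for endoplasmic reticulum (ER) chaperones and the unfolded protein response were higher in RES-B. All 26 listed genes were above the level limit, of which 10 rose at least 2-fold, none fell and 16 lay between, with a median of 0.86. For these 26 genes the median was 0.00 in LNCaP-ENZ48 and -0.15 in RES-A. HSPA5 encodes BiP, the main chaperone of the ER lumen, and had 245 CPM in LNCaP and 311 in LNCaP-ENZ48, with 288 in RES-A and 959 in RES-B (1.97 [1.94, 1.99]). HSP90B1, the ER form of HSP90, had 468, 449, 629 and 1255 CPM (1.42 [1.40, 1.44]), and CALR, a lectin chaperone that holds calcium, had 336, 381, 457 and 998 CPM (1.57 [1.548, 1.596]). RES-B was the highest library for each of these genes. After thinning, cells with an HSPA5 UMI went from 65.7% [63.6, 67.8] in LNCaP to 91.1% [90.2, 91.9] in RES-B.

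The other members that rose were SEL1L, an adaptor of ER-associated degradation (33.7 to 88.4 CPM), ERO1A, an oxidase for disulfide bonds (18.2 to 43.6 CPM), DNAJC3, a co-chaperone of BiP (34.6 to 76.9 CPM), and CRELD2 (47.4 to 110 CPM). MANF, a secreted ER stress protein, went from 183 to 390 CPM, PDIA4, a disulfide isomerase, from 92.0 to 191 CPM, and XBP1 is given above. Of these 10 genes, XBP1 alone was also past 2-fold in RES-A, where it had 286 CPM. HERPUD1, of ER-associated degradation, had a ratio of 0.73 [0.70, 0.77]. The amino acid response, which cells switch on through the factor ATF4, did not follow. Of its 30 genes none rose and 2 fell, with a median of -0.23. ATF4 itself had 443 CPM in LNCaP and 323 in RES-B (-0.46 [-0.48, -0.43]), and ASNS, asparagine synthetase, had 136 and 90.4 CPM (-0.59 [-0.65, -0.54]).

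The promoters of 3 of the raised chaperone genes are shown because their ER stress response elements (ERSE) are well known. The element was searched as CCAAT, 9 bases of any kind and CCACG, on both strands, in the 250 bases before the start (RefSeq, GRCh38.p14). It was found in 22 of 27305 promoters (0.0806%), in 7 of the 25 listed ER genes that had a promoter (28%), and in 5 of the 10 that rose, namely HSPA5, HSP90B1, CALR, CRELD2 and XBP1. The match describes letters and no binding was measured. Capitals mark both ends of each match, which read CGTGG and ATTGG where it lies on the opposite strand. HSPA5 lies on the minus strand at chr9:125241344-125241593, HSP90B1 on the plus strand at chr12:103930160-103930409 and CALR on the plus strand at chr19:12938359-12938608.
HSPA5: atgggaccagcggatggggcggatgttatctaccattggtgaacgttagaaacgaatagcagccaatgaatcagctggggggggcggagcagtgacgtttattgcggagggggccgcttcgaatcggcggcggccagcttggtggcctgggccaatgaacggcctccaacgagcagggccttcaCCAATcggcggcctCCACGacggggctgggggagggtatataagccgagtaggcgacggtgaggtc
HSP90B1: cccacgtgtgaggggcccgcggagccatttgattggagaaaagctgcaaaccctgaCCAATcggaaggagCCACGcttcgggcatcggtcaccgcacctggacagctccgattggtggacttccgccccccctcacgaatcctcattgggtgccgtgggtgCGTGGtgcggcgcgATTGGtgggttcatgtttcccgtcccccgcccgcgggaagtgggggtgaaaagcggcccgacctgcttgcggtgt
CALR: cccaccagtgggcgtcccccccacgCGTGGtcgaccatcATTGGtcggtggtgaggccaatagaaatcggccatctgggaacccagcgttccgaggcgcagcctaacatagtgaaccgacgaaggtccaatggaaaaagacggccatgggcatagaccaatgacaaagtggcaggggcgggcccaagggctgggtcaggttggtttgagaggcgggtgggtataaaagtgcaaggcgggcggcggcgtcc

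Lipid and sugar metabolism shifted by smaller steps. Of 21 genes of cholesterol synthesis and uptake, 3 rose at least 2-fold and none fell. Their median was 0.49 and 20 of 21 ratios were above 0, beside a median of 0.11 over all genes. Most ratios over all genes were thus also above 0. SQLE, squalene epoxidase, went from 37.1 to 79.8 CPM, FDPS, which makes farnesyl diphosphate, from 97.0 to 213 CPM, and ACAT2 from 29.7 to 61.0 CPM. FDPS lies on 1q and ACAT2 on 6q, which are among the highest arms described below. INSIG1, which holds back the sterol-sensing machinery, had 31.4 and 53.5 CPM (0.77 [0.68, 0.85]), short of 2-fold. In fatty acid synthesis, ELOVL6, an elongase, rose from 13.7 to 45.3 CPM and FADS2, a desaturase, from 44.6 to 94.9 CPM, 2 of 14 genes. FASN, fatty acid synthase, had a ratio of 0.76 [0.71, 0.81].

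Of 27 genes of glycolysis and the hypoxia response, 3 rose and 1 fell, with a median of 0.51. VEGFA, the vascular growth factor, went from 34.5 to 70.7 CPM, EGLN3, an oxygen-sensing prolyl hydroxylase, from 12.2 to 29.0 CPM, and PFKFB4 from 3.57 to 10.4 CPM. VEGFA lies on chromosome 6 within the highest run of neighbouring genes, which is described below. ENO2 fell from 15.1 to 6.39 CPM. SLC2A1, the main glucose transporter, had a ratio of -0.29 [-0.45, -0.14], so the list did not move as a block. Of 58 nuclear genes of the respiratory chain 1 fell and none rose. This was NDUFB4, an accessory subunit of complex I, with 728 CPM in LNCaP and 1069.9 in LNCaP-ENZ48, with 1009 in RES-A, and 190 for RES-B (-1.94 [-1.97, -1.91]). The 13 mitochondrially encoded genes had a median of 0.18, beside the higher mitochondrial share of RES-B cells.

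Metallothioneins, small proteins that bind zinc and copper, went in opposite directions. MT1G had 54.5 CPM in LNCaP and 72.2 in LNCaP-ENZ48, with 4.40 in RES-A and 0.364 in RES-B (-7.23 [-7.92, -6.61]). MT1F, 6.03 kb from it, had 12.98, 17.5, 6.22 and 60.9 CPM (2.23 [2.11, 2.35]). MT2A had 1283, 1010.1, 296 and 1912 CPM (0.58 [0.56, 0.59]). RES-B was thus the highest of the 4 libraries for MT1F and MT2A and the lowest for MT1G. The zinc exporter SLC30A1 rose from 6.01 to 20.5 CPM, and the importer SLC39A10 fell from 47.2 to 16.4 CPM. Among glutathione and redox enzymes, HMOX1, heme oxygenase, had 100, 47.3, 9.001 and 14.6 CPM (-2.78 [-2.89, -2.67]). SLC7A11, the cystine importer (-1.33), GSR, glutathione reductase (-1.27), and TXNRD1, thioredoxin reductase (-1.23), also fell. GSR lies on the short arm of chromosome 8, the lowest arm described below. NQO1, another enzyme of the oxidative stress response, had 284 CPM in LNCaP and 502 in RES-B (0.82 [0.80, 0.85]), short of 2-fold. Of 21 glutathione and redox genes above the level limit, 1 rose and 4 fell at least 2-fold. Their median was 0.33, with 13 ratios above 0 and 8 below.

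Growth factor and surface genes held some of the widest ratios. IGFBP3 rose from 1.04 to 25.2 CPM, while IGF1R, the receptor of that axis, had 5.05 and 0.503 CPM (-3.33 [-3.93, -2.77]) and was below the level limit. ERBB3, a receptor of the epidermal growth factor family, rose from 58.4 to 119 CPM, and EGFR had a ratio of -0.77 [-0.90, -0.65]. CD24, a glycosylated surface protein, had 4.51 CPM in LNCaP and 8.11 in LNCaP-ENZ48, with 42.3 in RES-A and 46.3 in RES-B (3.36 [3.17, 3.55]). Of 17 surface antigens 4 rose and 2 fell, with a median of -0.00215. Those that rose were CD24, ERBB3, TSPAN1 (1.12 [1.02, 1.22]) and TSPAN8. STEAP1 fell from 213 to 77.8 CPM and STEAP2 from 270 to 101 CPM. FOLH1, which encodes prostate-specific membrane antigen, had 327 CPM in LNCaP and 527 in LNCaP-ENZ48, with 239 in RES-A and 180 in RES-B (-0.86 [-0.90, -0.83]), short of 2-fold.

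Antigen presentation genes rose in part. HLA-B went from 51.8 to 114 CPM (1.13 [1.071, 1.198]), with 41.1 CPM in RES-A, and TAPBP, which loads peptides onto class I molecules, from 16.8 to 43.4 CPM. B2M, the shared light chain, had 309 and 305 CPM (-0.02 [-0.05, 0.01]). The interferon-induced IFITM2 (-2.29) and IFITM3 (-1.203) fell, so 2 of 14 members rose and 2 fell. All HLA class I genes and TAPBP lie on the short arm of chromosome 6, which is described below.

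Most epithelial genes did not reach 2-fold. KRT18, a luminal keratin, rose from 444 to 907 CPM (1.03 [1.01, 1.05]) and KRT8 had a ratio of 0.54 [0.50, 0.58]. EPCAM (0.75 [0.71, 0.80]) and CDH1 (0.22 [0.17, 0.27]), genes of epithelial adhesion, were not lower, whereas the desmosomal DSC2 fell from 55.2 to 9.55 CPM. VIM stood alone among mesenchymal genes, since CDH2 had 0 UMIs in both libraries and ZEB1 2 and 3. TWIST1, a factor of the same list, had 621 UMIs in LNCaP and 0 in RES-B. Of 30 neuroendocrine genes, 5 were above the level limit, of which 1 rose and 1 fell. CHGA had 0 UMIs in both libraries, and SYP had 4.33 and 3.40 CPM. ASCL2, a basic helix-loop-helix factor, rose from 0.754 to 14.5 CPM, and ENO2, given above, fell. The glucocorticoid receptor gene NR3C1 had 5 UMIs in LNCaP and 58 in RES-B, about 1.01 CPM.

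Proliferation genes differed little. MKI67 had 58.0 and 60.2 CPM (0.05 [-0.02, 0.12]) and TOP2A 87.1 and 93.3 CPM (0.10 [0.04, 0.16]). Of 51 G2/M genes none rose and 2 fell, KIF23 (-1.07) and CENPA (-1.02). Of 30 S phase genes GMNN, the replication licensing inhibitor, rose (1.06), and it lies on the short arm of chromosome 6. Over all genes 5.6% rose and 3.78% fell at least 2-fold. CDKN1A, the inhibitor p21, fell from 59.7 to 19.4 CPM (-1.62 [-1.72, -1.53]), with 55.6 CPM in RES-A. Of 13 genes of the BCL2 family none rose and 2 fell at least 2-fold, with a median of -0.016. Those that fell were the death-promoting BBC3 (-1.48) and PMAIP1 (-1.21). The protective MCL1 had a ratio of 0.56 [0.48, 0.64] and lies on 1q, an arm described below.

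Of 13 polyadenylated histone genes 3 fell and none rose, and of 13 noncoding RNAs 4 fell and 3 rose. Beside H2AFJ, the linker histones H1F0 (105 to 44.6 CPM) and HIST1H1C (259 to 111 CPM) fell. Of long noncoding RNAs, SCHLAP1 had 48.6 CPM in LNCaP and 53.3 in LNCaP-ENZ48, with 2.42 in RES-A and 10.9 in RES-B (-2.16 [-2.29, -2.04]), and ZFAS1, SNHG8 and SNHG19 fell as well (-1.17, -1.34 and -1.09). SNHG25 (1.93), DRAIC (1.67) and PCAT1 (1.30) rose. The 74 cytosolic ribosomal protein genes held no member past 2-fold, and 68 of them were below 0, with a median of -0.32.

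The check of cell type markers showed luminal prostate cells in both libraries. The 10 luminal markers summed to 2703 CPM in LNCaP and 1881 in RES-B. Of these 10, KRT18, given above, rose at least 2-fold, 4 fell and 5 lay between, with a median of -0.71. Immune, endothelial and fibroblast markers had no member above the level limit and summed to between 0.347 and 3.81 CPM. PTPRC, KRT5 and TP63, which define immune and basal cells, had 0 UMIs. Of 6 basal markers 1 rose, DST, a cytoskeletal linker (3.16 to 18.5 CPM).

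Last, the ratios of protein-coding genes were laid out by chromosome arm, with arms and positions from GENCODE 44 on GRCh38. The median over 7768 genes was 0.12. The short arm of chromosome 8 stood lowest, with a median of -0.79 over 94 genes, of which 4.26% were above that median. Within it, the 25 neighbouring genes from POLR3D to FZD3 had a median of -0.85. For this arm the median was -0.19 in LNCaP-ENZ48 and -0.15 in RES-A. Next came 22q (-0.33, 179 genes), 15q (-0.31, 246 genes), 11p (-0.30, 150 genes) and 11q (-0.24, 287 genes), with RES-A medians of 0.06, -0.50, -0.24 and -0.01 in that order.

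At the other end stood 6p (0.49, 210 genes), 21q (0.49, 81 genes), 1p (0.43, 487 genes), 1q (0.43, 368 genes) and 6q (0.41, 164 genes). In RES-A the medians were 0.45 for 21q and 0.30 for 6q, but 0.05 for 6p, 0.01 for 1p and 0.03 for 1q. In LNCaP-ENZ48 those of these 5 arms were between -0.11 and -0.05. The highest run of 25 neighbouring genes lay from MEA1 to TMEM14A, chr6:43011143-52686588, with a median of 0.96 and all 25 genes above that of all protein-coding genes. Of the highest genes, VAV3, PLA2G2A, CAMK2N1 and LMO4 lie on 1p, and LTN1 on 21q. The 50 genes around each of those on 1p, and the 38 around LTN1, had medians from 0.39 to 0.54, far less than the ratios of these 5 genes. Some of the nearest genes were also past 2-fold. PLA2G2A and CAMK2N1 are neighbours, 502 kb apart, with TMCO4 (1.05) and PINK1 (1.43) on either side. NTNG1 (1.23) beside VAV3 and RWDD2B (1.53) beside LTN1 were past 2-fold too. On their other sides SLC25A24 (0.67) and N6AMT1 (0.57) were not, nor were SELENOF (0.83) and PKN2 (0.37) beside LMO4. Copy number was not measured here, and its part in these medians was not tested.

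**Figure D5:**
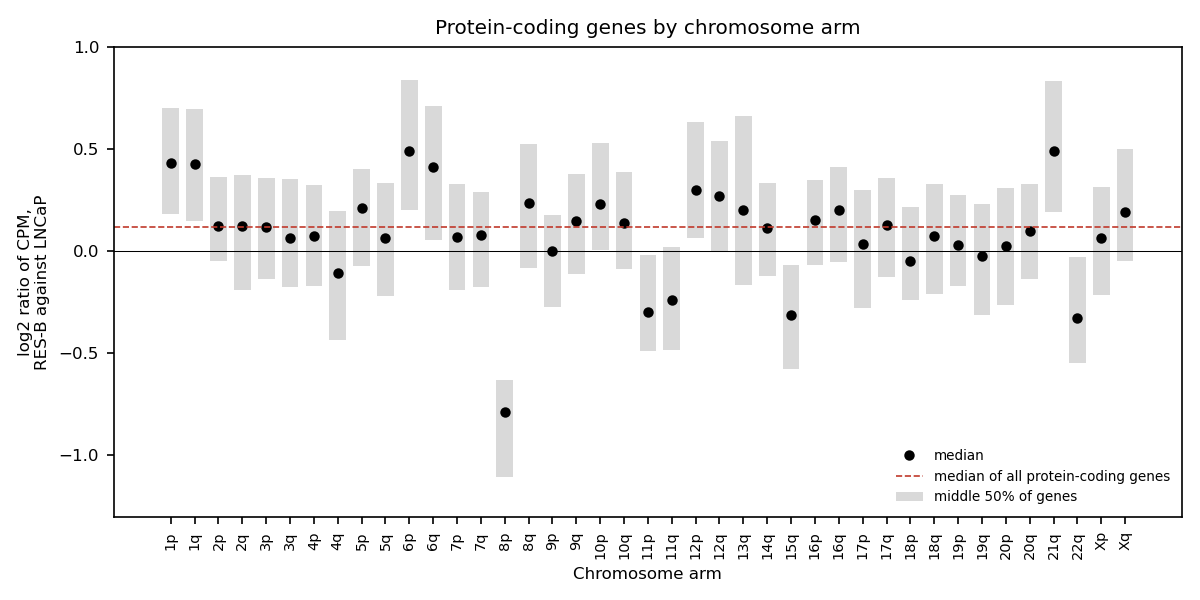
Log2 ratio of CPM, RES-B against LNCaP, of protein-coding genes on each chromosome arm, with black points for the median and grey boxes for the middle 50% of genes. The dashed line is the median of all protein-coding genes (0.12); 8p lies lowest (-0.79), and 6p, 21q, 1p, 1q and 6q lie highest (0.41 to 0.49).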

How the data were processed

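Single-cell suspensions of sorted living cells were sequenced as droplet-based 3' libraries, 1 per group, with groups taken from the sample titles. The authors deposited UMI counts per gene and barcode, for the barcodes called as cells, using the prebuilt GRCh38 reference of Cell Ranger 3.0.2. The counts were checked to be whole numbers over 33538 genes. Cell Ranger drops reads that map to several genes, which lowers genes with near copies.

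UMIs of the kept cells were summed per gene and library and scaled to CPM. Intervals of ratios were exact conditional binomial (Clopper-Pearson) and those of shares exact binomial, at 95%, for counting error only. For a count of 0 the floor was 3 UMIs in that library, and counts of 1 or more were used as they stand. With 1 library per group no test was run, and the study's test over cells was not used because cells are not replicates. No doublet removal was applied before the comparison. The scripts were tested on simulated data.

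Named genes were the 15 highest and 15 lowest by the interval bound nearest 0, among genes with at least 50 CPM in LNCaP or RES-B and an unchanged sign whichever cell filter was used, the core genes of 34 gene lists, list members past 2-fold, and chromosomal neighbours. Some genes that this rule names are not reported here. The comparison, its members and the lists were chosen with earlier results of these data known. Positions were matched by gene ID to GENCODE 44 (33113 of 33538 IDs found), which is newer than the annotation the matrices were made with. Promoters were RefSeq sequences matched by symbol.

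Alternatives were the study's cell limits per library, no cell filter, possible doublets left out (the cells with the most UMIs, at 0.8% per 1000 barcodes), cells called G1, cells thinned to 5000 UMIs, TMM factors of edgeR 4.0.16, size factors of DESeq2 1.42.0, totals without mitochondrial and ribosomal protein genes, and level limits of 1 and 50 CPM. Python 3.11.15, numpy 2.4.6, scipy 1.17.1, pandas 2.3.3, scanpy 1.11.5 and R 4.3.3 were used.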

Additional observations from a re-analysis of the deposited data

Results flagged for a closer look

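In 3 of the genes described above that passed the level limit, RES-B and another library lay on opposite sides of LNCaP by at least 2-fold, and the differences were not tested, since each group is 1 library. HOXA10 had a log2 ratio of 3.46 in RES-B and -3.59 in RES-A. MT1F had 2.23 in RES-B and -1.06 in RES-A. TSPAN8 had 9.37 in RES-B and -1.03 in LNCaP-ENZ48, where the second value rests on 3 UMIs against 5 in LNCaP.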

How the results depend on the processing

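The numbers of genes past 2-fold moved by over 1.5 times with the level limit alone: at 1 CPM 1184 genes were higher and 794 lower, and at 50 CPM 166 and 94. The median ratio of all genes went from 0.11 to 0.14 in cells called G1, 0.016 with TMM factors, 0.045 with DESeq2 size factors, 0.033 without mitochondrial and ribosomal protein genes in the total, 0.10 at 1 CPM and 0.16 at 50 CPM. With TMM factors 372 genes were higher and 360 lower, so that higher genes were 50.8% of those past 2-fold, against 59.7%. List medians turned sign in 8 lists at 50 CPM, where few members remain in some, 3 in cells called G1 and 2 with TMM factors, while those of the androgen-induced and endoplasmic reticulum lists kept theirs. Among list members, KIF23 went to -0.01 in cells called G1, which leave out cells scored by that gene. No paired analysis was possible because there is 1 library per group. Ratios of genes with few UMIs in 1 library, such as IGFBP5, TSPAN8 and PRAC1, are limited by counting error, and LNCaP has fewer and deeper cells than RES-B. Differences between cultures, library preparations and lines cannot be told apart with 1 library a side.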
